A study of Physcomitrium patens with 6 samples.

Results

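ABCB4 (gene model Pp1s391_45V6.1) and ABCB19 (Pp1s252_67V6.1) are a pair of putative auxin transporter genes of the moss Physcomitrella patens. They are 2 of the 19265 gene models listed in at least 1 of the 6 libraries, and were chosen by their levels over the 4 days, since the study named them among the genes whose transcripts peaked at day 3. Those levels are therefore described here without a test. The deposited best database matches call the same models PpABCB13 (ABCB4) and PpABCB16 (ABCB19), members of subfamily B of the ATP-binding cassette (ABC) transporters, group MDR/PGP. The symbols ABCB4 and ABCB19 are those of Arabidopsis genes. The moss gene that the annotation calls PpABCB4 (Pp1s8_52V6.1) is another gene model, and is named by its moss name throughout.

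ABC transporters use ATP to move molecules across membranes. In Arabidopsis, P-glycoproteins of subfamily B carry auxin across the plasma membrane, beside the efflux carriers of the PIN family and the influx carriers of the AUX1/LAX family. Arabidopsis ABCB19 is known as an efflux carrier of shoots and roots, and Arabidopsis ABCB4 as a root carrier for which both uptake and efflux of auxin have been described. In mosses, auxin promotes the passage from chloronema, filaments of short cells rich in chloroplasts, to caulonema, filaments of longer cells with fewer chloroplasts.

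Transcripts were counted by digital gene expression tag profiling (DGEP), in which a short tag next to a CATG site near the 3′ end of each cDNA is sequenced and counted. Every transcript was meant to give 1 tag whatever its length, so that levels are given per tag and not per length. No mutant, transgene or hormone treatment was compared. The libraries came from gametophytes grown from protoplasts and taken at days 3, 14, 24 and 30 after protoplast isolation, and from chloronemal and caulonemal cells cut by laser from live protonemata at day 14. The labels give leafy shoot as the tissue at all 4 days, whereas the growth protocol gives protonema at days 3, 14 and 24 and leafy shoots at day 30, and the protocol was followed. By the study's methods a day 14 colony held both filament types, a day 30 plantlet also held protonema and rhizoids, and each captured sample mixed dividing and non-dividing cells. Each condition had 1 library, made from pooled biological replicates, so that no difference below has a replicate check. In such bulk samples, fewer cells of a type and less RNA per cell cannot be told apart.

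The listed tags are printed because each value below is a count that rests on them, with the CATG site in capitals and the rest in lower case. ABCB4 had 1 listed tag, from the CATG site nearest the 3′ end, in all 6 libraries. For ABCB19, the tag of the second site from the 3′ end was listed in 5 libraries and that of the first site at day 24, a change of site that 20.8% of the gene models with over 100 tags at days 14 and 24 shared. Whether a deposited count is of the listed tag alone or of all sites of the gene is not stated.
ABCB4, site 1, all libraries: CATGcgtactcggttgcgagt
ABCB19, site 2, all libraries but day 24: CATGaaaagagaatctcttca
ABCB19, site 1, day 24: CATGtaattttattgagtcct
All 3 tags differed by at least 5 bases from every other one of the 28022 distinct listed tags, and each was listed for 1 gene model. No second gene model of either locus was listed.

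The libraries held 1733082 to 7027742 gene tags, with the captured cells and day 30 at the low end. For levels, libraries were scaled by the TMM method of edgeR (trimmed mean of M-values), which sets the bulk of the genes equal between libraries, with factors between 0.832 and 1.20. Levels are given as normalized TPM (scaled tags per 1000000) with exact 95% counting intervals. These intervals cover counting error only, and take each tag as independent. Copies made by PCR are counted as tags, so even counting error may be understated. As a check of the captured labels, 7 of 46 tested genes with a photosystem annotation were lower and 4 higher in caulonema by over 2-fold, beside 16.5% lower and 21.8% higher of all genes tested, with a median log2 ratio of -0.09 beside 0.13 over all genes tested. No RSL gene, a family that drives caulonema and rhizoid growth, was found by name. The check thus did not settle the captured labels, which are taken as given.

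ABCB4 was counted most often in the youngest plants. Its tags numbered 956, 130, 87 and 92 at days 3, 14, 24 and 30, and 85 were counted in chloronema beside 173 in caulonema. Scaled over the same 4 days, this was 167 normalized TPM (157 to 178), 22.2 (18.6 to 26.4), 14.9 (11.9 to 18.4) and 37.4 (30.2 to 45.9). Day 3 thus stood far above the other days, and the low point was day 24. The captured chloronema held 48.5 normalized TPM (38.7 to 59.9) and caulonema 56.3 (48.2 to 65.3), between day 3 and the later days. At day 3 ABCB4 had more tags than 93.1% of the gene models listed in that library, and at day 24 more than 55.9%.

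ABCB19 was the more abundant of the pair in every library. Its tags numbered 6926, 1822, 1200 and 551 at days 3, 14, 24 and 30, and the captured chloronema gave 302 beside 335 from caulonema. Scaled over the same 4 days, the levels were 1213 normalized TPM (1185 to 1242), 312 (298 to 326), 206 (194 to 218) and 224 (206 to 244). Day 3 stood above the later days, day 14 above days 24 and 30, and the intervals of days 24 and 30 overlapped. The captured cells held the lowest levels, 172 normalized TPM (153 to 193) in chloronema and 109 (97.7 to 121) in caulonema. At day 3 ABCB19 was the gene model of rank 101 by tags among 16605 listed, and in caulonema that of rank 1299 among 14652.

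**Figure D1:**
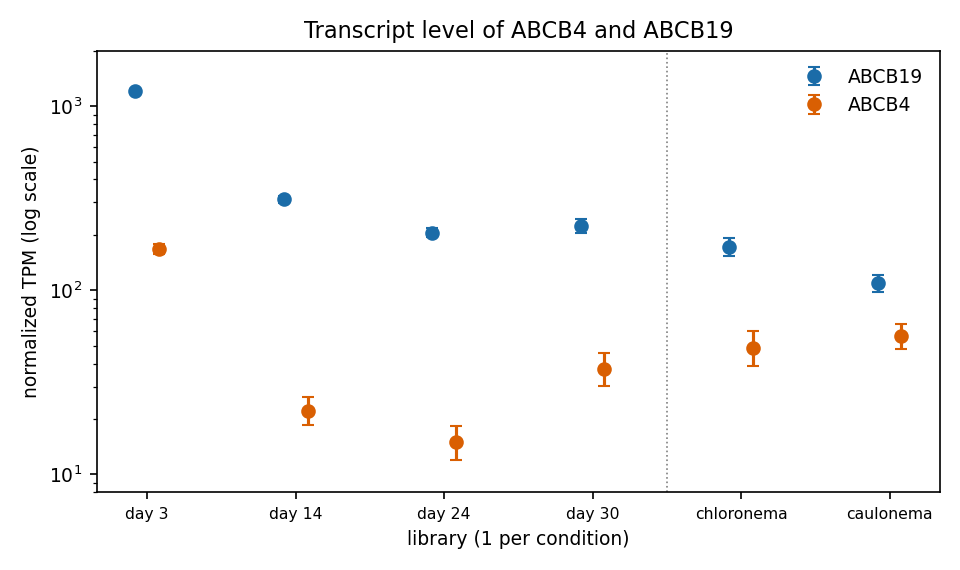
Level of ABCB4 and ABCB19 in each library, as normalized TPM on a log scale, with exact 95% counting intervals and 1 library per point. The dotted line parts the 4 days from the captured cells. Both genes are highest at day 3 (167 and 1213), but ABCB4 is lowest at day 24 (14.9) and ABCB19 in caulonema (109).

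The order of the libraries therefore differed between the genes below the top. For ABCB4 it ran from day 3 through caulonema, chloronema, day 30 and day 14 to day 24. Caulonema and chloronema, with a ratio of 1.16 (0.891 to 1.52), were neighbours not separated by the counting interval, as were chloronema and day 30, with a ratio of 1.29 (0.952 to 1.76). For ABCB19 the order ran from day 3 through day 14, day 30, day 24 and chloronema to caulonema, and only day 30 and day 24 were not separated, with a ratio of 1.09 (0.983 to 1.21). Under total gene tags, DESeq2 size factors and deposited TPM, day 3 stayed on top of both orders, 2.28 to 3.03 times the next library for ABCB4 and 3.89 to 4.32 times for ABCB19, the TMM value included. Deposited TPM exchanged chloronema with day 30 for ABCB4, and the captured cell types for ABCB19.

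The day 14 library held less of each transcript than that of day 3. ABCB4 was 7.53-fold lower (6.26 to 9.12, log2 ratio -2.91) and ABCB19 3.89-fold lower (3.70 to 4.10, log2 ratio -1.96), where 20.3% of the 7710 genes tested were lower by over 2-fold. Here and below, a gene was tested where it had over 100 tags in at least 1 of the libraries compared. This contrast chose the genes, so nothing is read from that share, nor from the 23.1% of 8861 gene models that were highest at day 3. A peak at day 3 of over 2-fold above each later day, which both genes had, was found in 6.95% of the 8861. Nothing is read from this share either, since the peak at day 3 chose the genes.

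From day 14 to day 24 both genes were lower by a similar ratio, which was 1.49-fold (1.13 to 1.98) for ABCB4 and 1.51-fold (1.41 to 1.63) for ABCB19, neither past 2-fold, where 26.4% of 7913 genes tested were. From day 24 to day 30 the pair parted. ABCB4 was 2.51-fold higher at day 30 (1.85 to 3.40), and 23.2% of 7267 genes tested were higher by over 2-fold, but its 87 and 92 tags were below the minimum for testing. ABCB19 differed by 1.09-fold (0.983 to 1.21), an interval that includes no change. The listed tag of ABCB19 at day 24 was that of another site than at days 14 and 30. Both of its ratios with day 24 may therefore compare different tags.

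**Figure D2:**
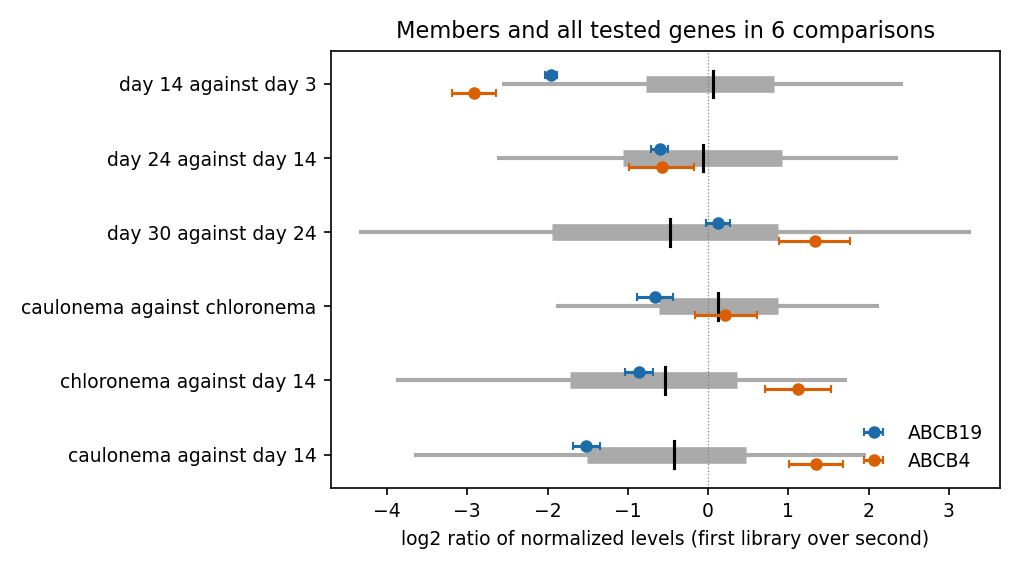
Log2 ratio of ABCB4 and ABCB19 (points with 95% counting intervals) in 6 library comparisons. Grey bars give the 25th to 75th percentile and thin lines the 5th to 95th percentile of all tested genes, with the median as a black tick. At day 14 against day 3 the ratios are -2.91 for ABCB4 and -1.96 for ABCB19. In chloronema and caulonema against day 14 they are 1.12 and 1.34 for ABCB4 and -0.86 and -1.52 for ABCB19. The days helped choose the genes, so nothing is read from their place among all genes in comparisons that hold a day.

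The comparison of captured cells asked whether either transporter gene differed between the filament types, and took no part in choosing the genes. In caulonema against chloronema, ABCB4 was 1.16-fold higher (0.891 to 1.52, adjusted p = 0.313), a difference that did not pass the test. ABCB19 was 1.58-fold lower in caulonema (1.35 to 1.85, adjusted p = 2.76e-08), a difference beyond counting error but under the 2-fold needed for a call. If libraries are assumed to vary with a coefficient of variation of 0.2, the adjusted p of ABCB19 was 0.238 by edgeR's exact test. The p-values are from the exact two-sided binomial test with Benjamini-Hochberg adjustment over the 4292 genes tested, and they compare the libraries, not the conditions. A call needed over 2-fold, p under 0.01 and adjusted p under 0.001, which 21.8% of the genes met as higher and 16.5% as lower in caulonema.

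The direction for ABCB19 depended on the scaling of the captured libraries. ABCB19 stayed lower in caulonema with total gene tags (log2 ratio -0.41) and with DESeq2 size factors (-0.75), but not with the other scalings tried. With deposited TPM the log2 ratio of caulonema to chloronema was 0.10 (adjusted p = 0.425) and with a reference gene (Pp1s17_377V6.1, used by the study for its captured cells) 0.09 (adjusted p = 0.448), in place of -0.66. For ABCB4 the log2 ratio was 0.97 under each of these scalings, in place of 0.22, with adjusted p of 3.07e-07 and 3.15e-07, and still short of 2-fold. With total gene tags and DESeq2 size factors the log2 ratio of ABCB4 was 0.46 and 0.12. The study took the reference gene for its stable level in its own TPM, so scaling by it nearly repeats deposited TPM and is no separate check. Under TMM that gene was at 1144 normalized TPM in chloronema and 678 in caulonema. Deposited TPM also moved the median of all genes tested, from 0.13 to 0.89. Taken against that median under TMM, ABCB4 was 0.09 above and ABCB19 0.79 below on the log2 scale.

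The share of ABCB4 in the tags of both genes needs no scaling. At days 3, 14, 24 and 30 it was 12.1% (Clopper-Pearson 95% interval 11.4 to 12.9), 6.66% (5.59 to 7.86), 6.76% (5.45 to 8.27) and 14.3% (11.7 to 17.3). It was 21.96% in chloronema (17.9 to 26.4) and 34.1% in caulonema (29.9 to 38.4), above each of the 4 days. ABCB4 therefore made up more of the pair in the caulonema library than in the chloronema library, with an odds ratio of 1.83 (Fisher's exact test, two-sided, p = 7.70e-05). This p takes each tag as independent and allows for no variation between libraries. It compares the libraries, not the cell types. Put the other way, ABCB19 had 14.0 tags for each ABCB4 tag at day 14, 3.55 in chloronema and 1.94 in caulonema.

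**Figure D3:**
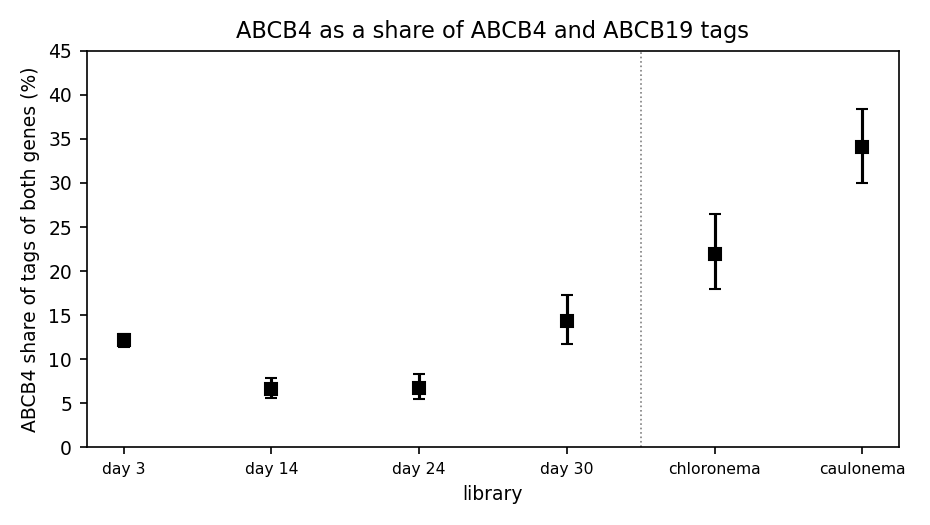
Share of ABCB4 in the summed tags of ABCB4 and ABCB19 in each library (%), with Clopper-Pearson 95% intervals. The dotted line parts the 4 days from the captured cells. The share is lowest at days 14 and 24 (6.66% and 6.76%) and highest in caulonema (34.1%).

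Day 14 was among the days that chose the genes, so the captured cells are set beside whole protonemata of the same age as a description, with no test. The ratios lay in opposite directions for the genes. ABCB4 was 2.18-fold higher in captured chloronema than at day 14 (1.64 to 2.89) and 2.53-fold higher in caulonema (2.00 to 3.20), where 12.5% of 6553 and 15.4% of 6917 genes were higher by over 2-fold. With deposited TPM the log2 ratio in chloronema was 0.71, below 2-fold, in place of 1.12.

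ABCB19 was 1.81-fold lower in chloronema than at day 14 (1.60 to 2.05) and 2.86-fold lower in caulonema (2.54 to 3.22), where 38.7% and 34.8% of genes were lower by over 2-fold. The log2 ratio in chloronema was -1.27 with deposited TPM, past 2-fold, in place of -0.86. In caulonema it was -0.99 with total gene tags, short of 2-fold, in place of -1.52. The genes tested had medians below those of day 14 under TMM, at -0.54 in chloronema and -0.43 in caulonema on the log2 scale. These medians depended on the minimum for testing. Without a filter on low counts they were 0.14 in chloronema and 0.07 in caulonema. A lower level of genes in general is therefore not read from them, nor from the shares of lower genes, which rest on the same filter. Nothing is read from the place of either gene among the ratios of all genes tested, since the choice of genes used day 14.

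The level at day 14 thus fell outside the range of the captured cell types for both genes, below it for ABCB4 and above it for ABCB19. This held under all 4 scalings. Of 6963 gene models with over 100 tags in at least 1 of the 3 libraries, day 14 was above both cell types in 49.9% and below both in 25.7%, and nothing is read from these shares. Whole plants and captured cells also differed in how the RNA was obtained, and its part in these differences cannot be told apart from that of the cells.

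The annotation named 19 ABCB gene models with tags, 9 of them in group MDR/PGP with ABCB4 and ABCB19, 6 in group TAP, 3 in group ATM and 1 in group LLP. ABCB19 supplied 59.3%, 51.7%, 25.5% and 20.4% of all their tags at days 3, 14, 24 and 30, and 16.8% in chloronema beside 14.9% in caulonema. It ranked 1 of 19 at days 3, 14 and 24. ABCB4 supplied 8.18% at day 3 and between 1.85% and 7.71% elsewhere, ranking 3 of 19 at day 3 and in caulonema but 13 of 19 at day 24. The other 17 models together summed to 666, 269, 586 and 840 normalized TPM on these days, and to 807 in chloronema beside 565 in caulonema.

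**Figure D4:**
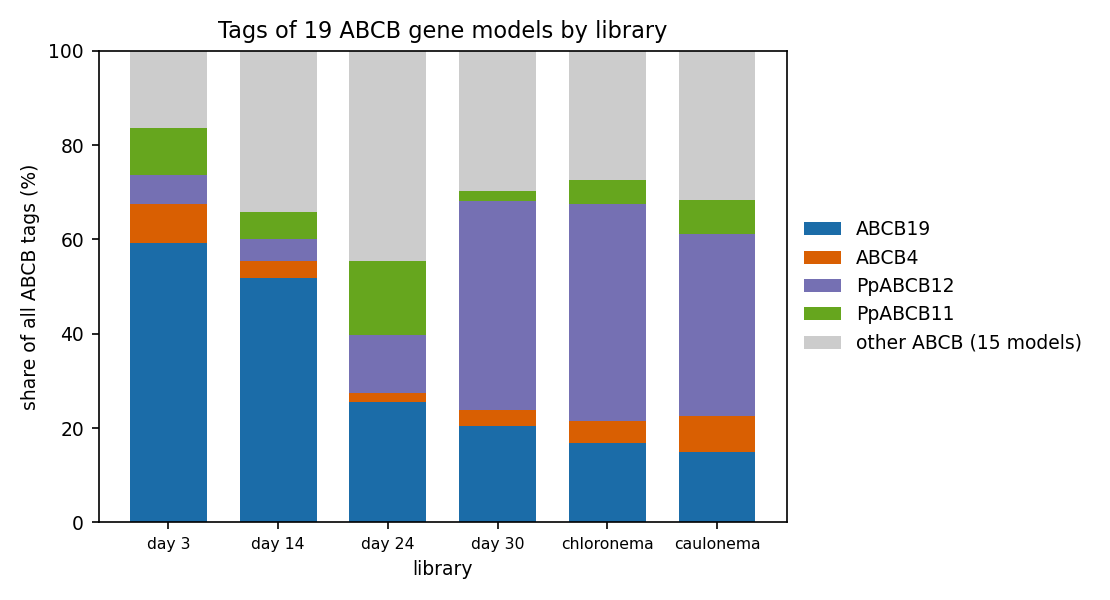
Share of each ABCB gene model in all ABCB tags of a library (%), as stacked bars of ABCB19, ABCB4, PpABCB12, PpABCB11 and the other 15 models. ABCB19 and ABCB4 together give 67.5% at day 3 and 21.5% to 27.3% from day 24 on and in captured cells, where PpABCB12 is large except at day 24.

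The gene model that ranked above ABCB19 at day 30 and in both captured cell types was PpABCB12 (Pp1s338_12V6.1), also of group MDR/PGP. Over days 3, 14, 24 and 30 its tags numbered 732, 166, 581 and 1203, and 831 were counted in chloronema beside 864 in caulonema. In normalized TPM, PpABCB12 was at 128, 28.4, 99.6 and 490 on these days, 474 in chloronema and 281 in caulonema. Its low point was day 14, where the listed tag was also that of another site. PpABCB11 (Pp1s397_2V6.1, MDR/PGP) resembled ABCB19 in its high of 1159 tags at day 3, but had 197, 739 and 55 on the later days, and 90 in chloronema beside 163 in caulonema. After scaling, PpABCB11 was nearly equal in the captured cells, at 51.3 normalized TPM in chloronema and 53.0 in caulonema. PpABCB2 (Pp1s121_11V6.1, MDR/PGP) stayed between 20 and 182 tags. The tags of these relatives, whose counts are set beside those of the pair, differed by at least 4 bases from every other listed tag.
PpABCB12, site 1, all libraries but day 14: CATGcagcaaaaagattgtac
PpABCB12, site 2, day 14: CATGgcatgcagcaaaaagat
PpABCB11, site 1, all libraries: CATGctaaaaagtagggagaa
PpABCB2, site 1, all libraries: CATGgccaagaaaggagcata

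Group TAP is named after transporters of peptides in animals, and group ATM after mitochondrial ABC transporters of yeast. Among the former, PpABCB7 (Pp1s1_60V6.1) was highest at day 3 with 689 tags and had 26 at day 30, 22 in chloronema and 164 in caulonema. In normalized TPM it was at 121 at day 3, 10.6 at day 30, 12.5 in chloronema and 53.4 in caulonema. PpABCB5 (Pp1s286_50V6.1) had 269 to 355 tags at days 3 to 24 and 39 in caulonema. PpABCB8 (Pp1s194_17V6.1), with 409 tags at day 24 and 274 at day 30, and PpABCB6 (Pp1s300_26V6.1), with 206 and 166, had their higher levels on the later days. After scaling for the smaller day 30 library, both were highest of the 4 days at day 30. PpABCB8 was at 70.1 normalized TPM at day 24 and 112 at day 30, and PpABCB6 at 35.3 and 67.6. The moss gene PpABCB4 (Pp1s8_52V6.1) had 203, 78, 213 and 108 tags over the 4 days, and 23 in chloronema beside 127 in caulonema. In normalized TPM this was 35.6, 13.3, 36.5 and 44.0 over the days, 13.1 in chloronema and 41.3 in caulonema. Of group ATM, PpABCB10 (Pp1s332_37V6.1) was highest in chloronema with 259 tags, and PpABCB9 (Pp1s249_41V6.1) at day 3 with 171.

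Of the 17 other ABCB models, 10 had over 100 tags in a library, and 3 of the 9 that had them on a day were highest at day 3, beside 23.1% of all such genes. From day 3 to day 14 none of the 8 tested was over 2-fold higher, as 20.1% of all genes tested were, and 4 were lower, as 20.3% were, with a median log2 ratio of -1.07 beside 0.07 over all genes tested. From day 14 to day 24, 4 of 9 were over 2-fold higher and none lower, beside 23.2% and 26.4% of all genes tested, with a median of 0.98 beside -0.06, whereas ABCB4 and ABCB19 were at -0.58 and -0.60. From day 24 to day 30, 1 of 9 was higher and 4 were lower, beside 23.2% and 39.4% of all genes tested. In caulonema against chloronema 2 of 5 were higher and 1 was lower, beside 21.8% and 16.5%. Against day 14, chloronema had 3 of 7 higher and 2 lower, beside 12.5% and 38.7%, and caulonema 3 of 8 higher and 1 lower, beside 15.4% and 34.8%. These lists are short, and nothing particular to them is read from the counts.

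**Figure D5:**
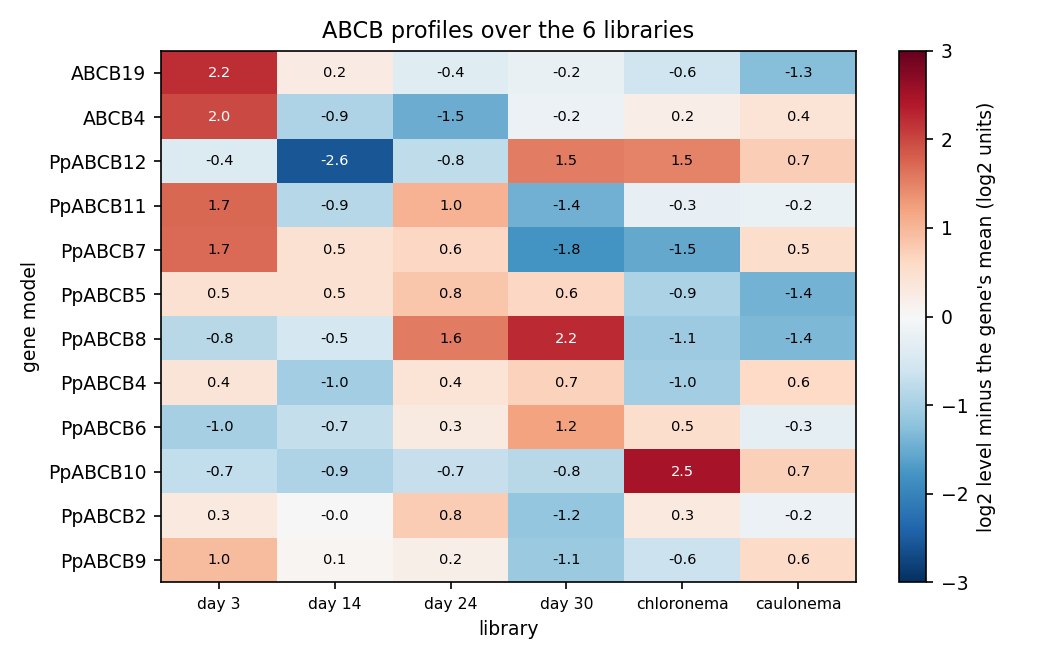
Profiles of ABCB19, ABCB4 and the 10 other ABCB gene models with over 100 tags in a library, as log2 level minus the mean of that gene over the 6 libraries (colour and number, 0.5 tags added). ABCB19 and ABCB4 have their high at day 3 (2.21 and 1.98), as do PpABCB11, PpABCB7 and PpABCB9. PpABCB4 is the moss gene of that name and not ABCB4, and PpABCB12 has its low at day 14 (-2.57).

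Other ABC transporters with tags numbered 83, of which 20 of the 44 with over 100 tags on a day, or 45.5%, were highest at day 3, beside 23.1% of all such genes. At day 14 against day 3, 5 of 39 were over 2-fold higher and 15 lower, beside 20.1% and 20.3% of all genes tested, with a median log2 ratio of -0.72 beside 0.07. In caulonema against chloronema 2 of 22 were higher and 1 was lower, beside 21.8% and 16.5%. The most abundant was PpABCA2 (Pp1s150_114V6.1), with 10926, 7885, 6838 and 306 tags over the 4 days. PpABCG16 (Pp1s72_306V6.1), with 5541 tags at day 3 and 518 at day 14, and PpABCG17 (Pp1s15_137V6.1), with 2536 and 1241, were also highest of the 4 days at day 3. The same held for PpABCC3 (Pp1s352_50V6.1), with 2179 and 818, and for PpABCA4 (Pp1s46_20V6.1), with 965 and 762. PpABCG15 (Pp1s12_29V6.1) was scaled highest at day 30, with 1000 tags in that smaller library beside 2180 at day 3.

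For the rest of the auxin transport machinery, no best match in the annotation named a PIN or AUX1/LAX carrier. Gene ontology terms for auxin transport were held by 22 other models with tags, of which 7 had over 100 tags on a day and 3 of these were highest at day 3, beside 23.1% of all such genes. At day 14 against day 3, 2 of 7 were higher and 1 was lower by over 2-fold, beside 20.1% and 20.3% of all genes tested. In caulonema against chloronema 2 of 3 were higher and none lower, beside 21.8% and 16.5%. Several of these models are annotated with roles other than carrying auxin. Pp1s445_19V6.1, with pyrophosphatase and proton transport terms, had 219, 513, 653 and 355 tags over the 4 days, and 166 in chloronema beside 797 in caulonema. In normalized TPM this was 38.4, 87.8, 112 and 144 over the days, 94.7 in chloronema and 259 in caulonema. Pp1s276_77V6.1, Pp1s41_175V6.1 and Pp1s15_486V6.1, with terms for transport through the nuclear envelope, had different profiles. Pp1s276_77V6.1 had 336, 241, 156 and 31 tags over the 4 days, and Pp1s15_486V6.1 had 162, 89, 71 and 3. Pp1s41_175V6.1 had 145, 78, 46 and 177, with its high at day 30. Pp1s14_419V6.1, a carotenoid cleavage dioxygenase of the kind that makes strigolactones, was not listed at day 3 and had 225 tags at day 24. Pp1s72_55V6.1 had 87 tags at day 3 and 117 at day 14. Pp1s292_64V6.1, a membrane protein by its terms, had the most tags at day 3, with 1839, 329, 801 and 441 over the 4 days, and 83 in chloronema beside 173 in caulonema. After scaling, these captured cells were at 47.3 and 56.3 normalized TPM.

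Auxin perception and response was represented by 27 models with tags, among them receptors of the TIR1 type, which bind auxin, and auxin response factors, which control transcription of auxin target genes. Of the 13 with over 100 tags on a day, 2 were highest at day 3, beside 23.1% of all such genes. At day 14 against day 3 none of 9 was over 2-fold higher and 4 were lower, beside 20.1% and 20.3% of all genes tested. At day 24 against day 14, 5 of 9 were higher and none lower, beside 23.2% and 26.4%. In caulonema against chloronema 3 of 8 were higher and none lower, beside 21.8% and 16.5%. The most abundant, Pp1s88_1V6.2, had 986, 499, 1605 and 278 tags over days 3, 14, 24 and 30. In normalized TPM this was 173, 85.4, 275 and 113. Pp1s33_197V6.1 had 795, 562, 568 and 6 over the same days, and Pp1s23_342V6.1 had 374, 300, 239 and 3. Scaled, these 2 models went from 97.4 and 41.0 normalized TPM at day 24 to 2.44 and 1.22 at day 30. The receptor-like TIRA2 (Pp1s16_2V6.1) had 183, 40, 281 and 82 tags over the 4 days, or 32.1, 6.84, 48.2 and 33.4 normalized TPM. TLP1A (Pp1s12_347V6.2) and Pp1s371_26V6.2 had their most tags at day 30, with 173 and 184. The study names a pair of models auxin response factor 6. Of these, Pp1s133_56V6.1 had 184 tags at day 30 against 46 at day 3, and Pp1s316_22V6.1 had 172 in caulonema against 18 in chloronema.

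Likeness of profile was measured over the 6 libraries as the root mean square distance between log2 levels, each gene taken relative to its own mean, among the 9003 gene models with over 100 tags in a library. The points share libraries and scaling, and no test is attached. Nearest to ABCB4 was Pp1s99_177V6.1, a predicted protein without terms (distance 0.284, Pearson's r 0.973), with 475 tags at day 3 and 69 at day 14. It was followed by Pp1s56_260V6.2 (0.362), with a transport term, Pp1s145_142V6.1 (0.374), with a term for glucose breakdown, Pp1s18_318V6.1 (0.380), with a metal ion transport term, and Pp1s301_11V6.1 (0.396), without terms. Nearest to ABCB19 were Pp1s7_102V6.1 (0.302), with a protein transport term and 2581 tags at day 3 and 1049 at day 14, and Pp1s290_35V6.1 (0.304), with terms for targeting proteins to membranes. Then came Pp1s300_55V6.1 (0.315), with general stimulus terms, Pp1s173_9V6.1 (0.326), without terms, and Pp1s223_26V6.1 (0.330), with terms for carbon fixation and glucose breakdown. ABCB4 and ABCB19 were not near each other by this measure, at a distance of 1.02 (r 0.567), which put ABCB19 at rank 849 from ABCB4 and ABCB4 at rank 1393 from ABCB19.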

How the data were processed

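One tag profiling library was made per condition (6 in all) from pooled biological replicates. The authors matched tags to gene models and deposited, per library and model, the tag count, the TPM (the count per 1000000 tags of the library) and a listed tag with its CATG site. Tags were matched by blastn according to the paper, and by Bowtie according to the submitters' processing notes. Versions are not given in the sources used here. Models without a value were taken as 0, and the lowest listed count was 2.

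The deposited counts were scaled by TMM (edgeR 4.0.16). Since edgeR's quasi-likelihood test could not be fitted with 1 library per condition, the captured cells were tested against each other by an exact binomial test (two-sided) at the ratio of the scaled gene tags (scipy 1.17.1), with Benjamini-Hochberg adjustment, after tests on simulated data. Other scalings tried were the total gene tags, the size factors of DESeq2 1.42.0, the deposited TPM and reference genes. Other filters, thresholds and edgeR's exact test were also run, the last with an assumed coefficient of variation of 0.2 or 0.4. On the log2 scale of the profiles, 0.5 tags were added.

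Named genes were all ABCB models and auxin transport models with over 100 tags in a library, the 6 most counted of the other ABC transporters and of the auxin response list, with both auxin response factor 6 models, and the 5 nearest profiles of each gene. Lists came from the deposited annotation. Members and lists were chosen with earlier results of these data known.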

Additional observations from a re-analysis of the deposited data

How the results depend on the processing

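No paired analysis was possible because each condition had 1 library and the labels carry no replicate numbers, and no library could be left out for the same reason. Of 68 values of the genes recomputed under other settings, 51 kept direction and side of the threshold or, over the days, stayed within the counting interval of the value given. The other filters cannot move the ratio of a gene, and all their values count among the 51. Comparisons with day 14 are counted as well, although no test of them is read. ABCB19 in caulonema against chloronema (-0.66 on the log2 scale) turned to 0.10 with deposited TPM and 0.095 with the reference gene, which scale these libraries nearly alike. ABCB4 in that comparison (0.22) moved to 0.97 with each of these scalings, and counts as kept since it stayed short of 2-fold. Against day 14, where no test is read, ABCB4 in chloronema (1.12) was 0.71 with deposited TPM, ABCB19 in caulonema (-1.52) was -0.99 with total gene tags, and ABCB19 in chloronema (-0.86) was -1.27 with deposited TPM. With edgeR's exact test at an assumed coefficient of variation of 0.2 or 0.4, the log2 ratios of ABCB4 in chloronema (1.12) and caulonema (1.34) and of ABCB19 in caulonema (-1.52) were unmoved but no longer past the threshold. For ABCB19, day 14 against day 3 (-1.96) moved to -2.11 with total gene tags and -2.06 with deposited TPM, day 24 against day 14 (-0.60) to -0.34 with total gene tags and -0.46 with the reference gene, and day 30 against day 24 (0.12) to 0.28 with DESeq2 size factors and -0.043 with the reference gene. A change of scaling moves the log2 ratios of all genes in a comparison by the same amount. Which scaling is nearest the truth was not tested.

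Genes past 2-fold numbered 3112, 3920, 4545, 1646, 3352 and 3476 in day 14 against day 3, day 24 against day 14, day 30 against day 24, caulonema against chloronema, and chloronema and caulonema against day 14. Without the filter they numbered 6902, 8523, 10150, 5681, 8922 and 8386, and at 4-fold 1142, 1378, 2694, 429, 1595 and 1557. The share of higher genes among those past 2-fold moved with total gene tags from 46.7% to 58.0% in day 24 against day 14, from 56.9% to 70.0% in caulonema against chloronema, and from 24.4% to 34.8% and 30.7% to 50.4% in chloronema and caulonema against day 14. With deposited TPM the last 3 were 88.2%, 13.1% and 43.0%. Ranked by Pearson's r, 1 of the 5 nearest profiles of ABCB4 and 2 of those of ABCB19 were the same. At 85 to 173 tags in a library, counting error alone limits ABCB4 more than ABCB19.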
